A study of Homo sapiens with 9 samples.

Results

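The kinesin motor genes were described in SH-SY5Y, a human neuroblastoma cell line with sympathetic neuroblast features that was derived from the SK-N-SH line. The cells had been cultured for 72 h in serum-containing medium with vehicle (0 µM), 10 µM or 20 µM citrinin (CTN), a toxin of several moulds that contaminates stored grain. Total RNA of 3 libraries per dose was sequenced, 9 libraries in all, and no library carried a genetic change beyond the line itself. The members were every gene with a symbol of KIF, a number and at most 1 letter A, B or C, together with KIFC1 to KIFC3 and KLC1 to KLC4, leaving out antisense genes and pseudogenes. This gave 46 of the 61487 gene identifiers, all protein-coding, and 41 of them had enough reads to be tested.

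Kinesins are motor proteins that hydrolyse ATP to step along microtubules or to take them apart. In dividing cells a set of them builds the spindle, moves chromosomes and completes cytokinesis, and these genes are mostly transcribed late in the cell cycle. In neurons another set carries vesicles, mitochondria and other cargo along the axon, often as heavy chains paired with light chains that bind the cargo. A proliferating neuroblastoma line holds both sets.

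The depth was 15678443 to 19604367 gene reads per library, at which 3 reads equalled 0.153 to 0.193 CPM (counts scaled to library size). Kinesin reads summed to 2754 to 3439 CPM. The sympathetic neuroblast markers that define the labelled cell type were all detected (10 of 10, summed 2649 to 3851 CPM). Among the markers of other cells, the glial transcription factor FOXD3 had 0 reads in all vehicle libraries and SOX10 averaged 0.405 CPM there. Libraries that share a replicate number deviated together at all doses (correlation of deviations from group means 0.457 to 0.685 over 9 pairs, against -0.545 to 0.139 over the 18 other pairs). Whether replicates came from separate cultures is not stated in the labels; the p-values therefore reflect the spread of these samples alone, which may be technical. In RNA from whole cultures, fewer cells of a type and less RNA per cell cannot be told apart.

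At 20 µM citrinin, 3 kinesin genes fell against vehicle and none rose. They were KIF26B, KIF26A and KIF21A, with log2 fold changes of -0.43 ± 0.05, -0.26 ± 0.06 and -0.25 ± 0.05 (SE, n = 3 libraries per dose). No mitotic kinesin, light chain or ciliary kinesin was called at either dose. "Fell" and "rose" stand for a Benjamini-Hochberg adjusted p below 0.05 in edgeR's quasi-likelihood test over 17806 genes, with the replicate number as a block. The 3 of 41 lower members stood beside 1.36% of all tested genes called lower and 0.848% called higher (2.21% in either direction). The planned fit without the block called 0 members and 0 genes in every comparison. At an unadjusted p below 0.05 that fit held 0 members and 387 genes (2.17%) at 20 µM against vehicle, 0 members beside 0.646% of genes at 10 µM and 0 beside 1.18% between the doses, and DESeq2 and limma-voom without the block also called 0 members. The residual spread differed between the fits: the typical coefficient of variation was 0.195 without the block and 0.0552 with it.

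Levels were compared between genes as CPM per kilobase of exon, in vehicle libraries. Exon length counted every base in any annotated exon of the gene, so unused exons lower the level. KIF5B, the ubiquitous conventional kinesin heavy chain, was the most abundant at 53.2 ± 5.51 CPM per kb (SD, n = 3), followed by KIF21A at 37.6 ± 5.02. KIF3C, a subunit of heterotrimeric kinesin-2, came next at 25.1 ± 1.27, ahead of the microtubule depolymerase KIF2A at 22.5 ± 2.45. KIF5C, the neuronal conventional heavy chain, stood at 21.0 ± 6.72, within its own spread of the genes on either side. The highest mitotic members were KIF11, the motor that slides spindle poles apart, at 18.8 ± 2.53 and the minus-end motor KIFC1 at 17.6 ± 1.45, which did not differ beyond their SDs. KIF26A (14.2 ± 2.58), KIF22 (14.1 ± 1.49), KIF2C (14.0 ± 2.34) and KIF26B (13.3 ± 4.33) were likewise not separated.

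**Figure D1:**
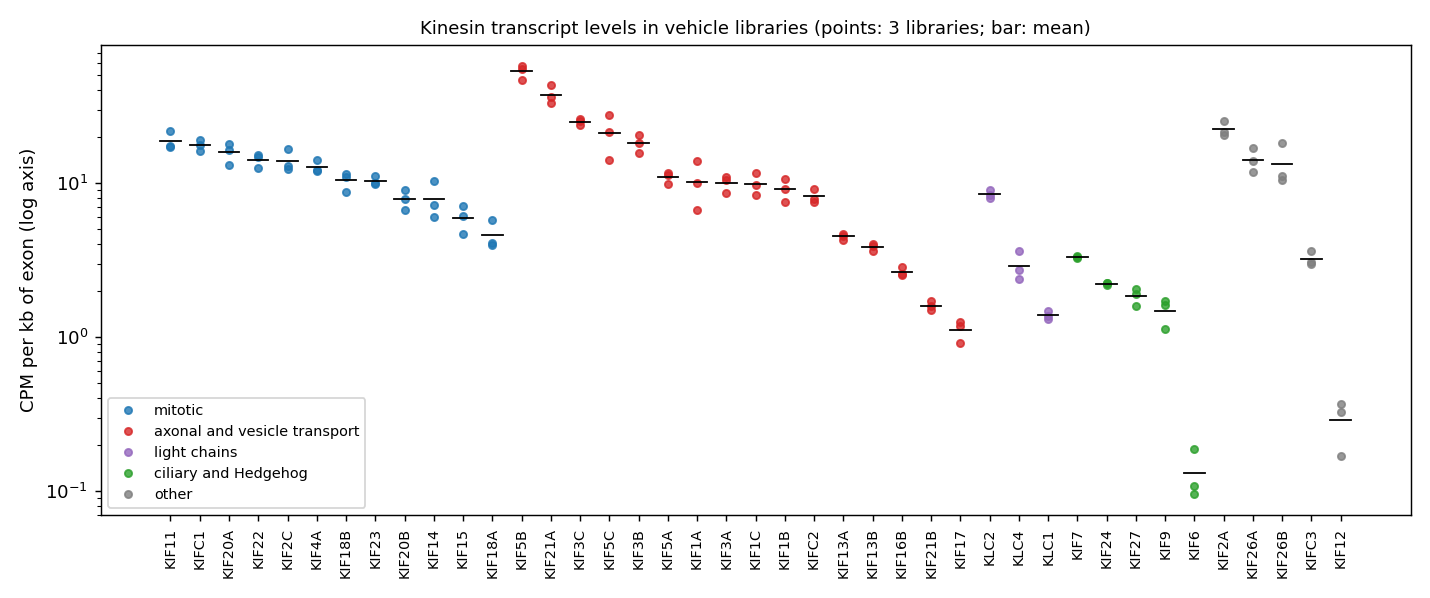
Vehicle level of the 41 tested kinesin genes in CPM per kilobase of exon on a log axis, grouped by role. Points are the 3 vehicle libraries and bars their means. KIF5B and KIF21A lead at 53.2 and 37.6, and KIF12 and KIF6 are lowest at 0.287 and 0.131.

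Role medians of that level were 11.6 CPM per kb for the 12 tested mitotic members, 9.94 for the 16 transport members, 2.91 for the 3 light chains, 1.86 for the 5 ciliary and Hedgehog members and 13.3 for the 5 others. The median exon length was 4.66 kb for the tested mitotic and 8.15 kb for the transport members. How far the order of these roles depends on that length was not tested. The mitotic members spanned a narrow range, 4.63 to 18.8, and the transport members a wide one, 1.12 to 53.2. Of the 5 untested members, KIF2B, a mitotic depolymerase, had 0 reads in all libraries. KIF4B had 0 to 4 reads per library; it is an intronless copy of KIF4A, so reads that match both were not counted and both values are uncertain. KLC3 and the ciliary KIF19 had 0 to 8 reads and KIF25 had 6 to 13.

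KIF26B and KIF26A are the vertebrate kinesin-11 motors, atypical kinesins with diverged motor domains; KIF26B is known for roles in cell adhesion and migration downstream of WNT5A and ROR receptors, and KIF26A for the development of enteric neurons. KIF26B (ENSG00000162849, GRCh38 chr1:245154985-245709431, plus strand, 19 exon blocks) was read at 263, 150.0 and 161 CPM in vehicle libraries 1, 2 and 3. It was read at 253, 139 and 152 CPM at 10 µM and at 195, 109 and 122 CPM at 20 µM. Replicate 1 was the highest library at every dose, and the doses overlapped: the 20 µM library 1 lay above vehicle libraries 2 and 3. Within each replicate number the order was the same, with vehicle highest and 20 µM lowest. The mean went from 191 ± 62.3 to 142 ± 46.5 CPM (SD, n = 3), a fold of 0.744. The log2 differences of the 3 same-numbered pairs, -0.43, -0.46 and -0.39, differed little, and the edgeR adjusted p with the block was 1.24e-06. Without the block the difference was the same size with a larger error (-0.43 ± 0.33, adjusted p = 1).

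KIF26A (ENSG00000066735, chr14:104138723-104180894, plus strand, 15 exon blocks) was read at 94.2, 114 and 79.4 CPM in vehicle. It was read at 88.3, 99.1 and 72.5 CPM at 10 µM and at 88.4, 84.7 and 67.1 CPM at 20 µM. Replicate 2 gave the largest of the 3 paired differences (-0.43 on the log2 scale, against -0.09 and -0.24), and the vehicle and 20 µM groups overlapped. The mean went from 95.9 ± 17.5 to 80.1 ± 11.4 CPM (SD, n = 3), a fold of 0.837 with an adjusted p of 0.0152 in edgeR with the block. The call held in 3 of 9 left-out sets and was lost when replicate 2 or 3 was left out of vehicle, of 20 µM or of all doses (the estimate ran from -0.34 to -0.17 over all left-out sets, with adjusted p up to 0.435). KIF26A and KIF26B lie on different chromosomes and neither overlaps the exons of another gene.

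**Figure D2:**
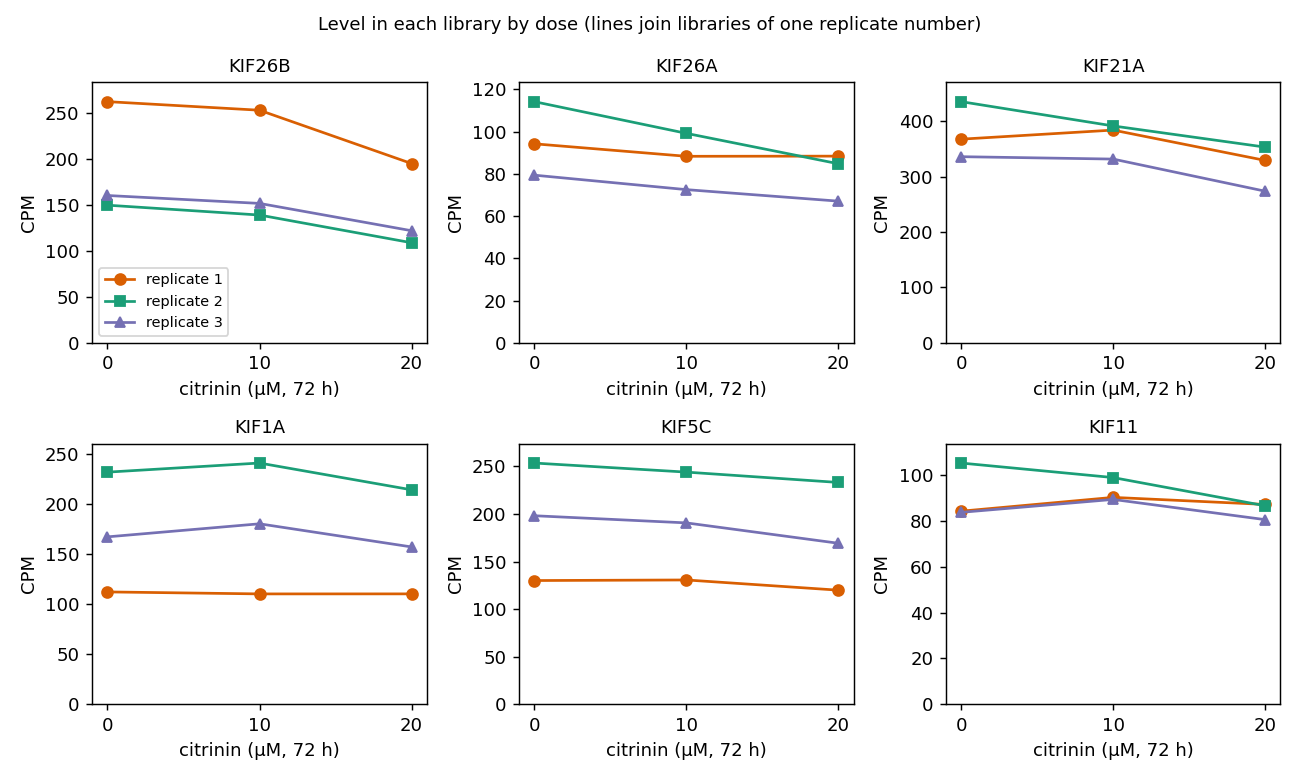
CPM of 6 kinesin genes in each library against citrinin dose in µM; lines join libraries that carry the same replicate number. KIF26B drops from 10 to 20 µM in all 3 lines, while KIF1A and KIF5C differ more between the lines than between the doses.

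KIF21A was the only gene listed with the transport kinesins that fell, and cargo carriage by it was not measured. It is a kinesin-4 that restrains microtubule growth at the cell cortex and in axons, and its variants cause congenital fibrosis of the extraocular muscles. KIF21A (ENSG00000139116, chr12:39293228-39443390, minus strand, 39 exon blocks) was read at 368, 436 and 336 CPM in vehicle. It was read at 384, 392 and 332 CPM at 10 µM and at 329.5, 354 and 274 CPM at 20 µM. In each replicate number the 20 µM library was the lowest, although the groups overlapped, with 20 µM library 2 inside the vehicle range and library 1 just below it. The mean went from 380.0 ± 50.8 to 319 ± 40.9 CPM (SD, n = 3), a fold of 0.839 with an adjusted p of 0.00224 in edgeR with the block. The call was lost when vehicle replicate 2, 20 µM replicate 3 or the whole of replicate 3 was left out (adjusted p up to 0.417), while the estimate stayed between -0.30 and -0.21.

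The other 15 transport members ranged from -0.21 to 0.18 on the log2 scale at 20 µM against vehicle, and none passed the test. KIF5C, chosen after its values were seen, came closest: it was read at 130.1, 254 and 198 CPM in vehicle and at 119.9, 233 and 169 CPM at 20 µM. Each 20 µM library was below its same-numbered vehicle library, with a log2 difference of -0.16 ± 0.05 and an adjusted p of 0.078 in edgeR with the block. Without 20 µM replicate 1 KIF5C was called, in a fit that called 619 of 18262 genes. KIF13B, a motor that carries membrane proteins to the cell surface and was chosen the same way, stood at -0.21 ± 0.07 (adjusted p = 0.125). The other conventional heavy chains, KIF5A and KIF5B, at -0.06 ± 0.07 and -0.09 ± 0.05, were not called. KIF5B, the most abundant kinesin, was read at 276, 338 and 324 CPM in vehicle and at 246, 326 and 314 CPM at 20 µM, with replicate 1 lowest in both groups and the groups overlapping.

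KIF1A, the axonal carrier of synaptic vesicle precursors, was read at 112, 232 and 167 CPM in vehicle, 110.3, 241 and 180.4 CPM at 10 µM and 110.3, 214 and 157 CPM at 20 µM. Replicate 1 was far below the other replicates at each dose, and the doses overlapped. Its log2 difference was -0.08 ± 0.05 at 20 µM against vehicle and 0.05 ± 0.05 at 10 µM, neither of which passed the test. The other kinesin-3 members of the transport list, besides KIF13B above, did not move one way. KIF1B stood at -0.09 ± 0.05, KIF1C at 0.12 ± 0.06, KIF13A at 0.05 ± 0.06 and KIF16B, the endosome motor, at -0.11 ± 0.09. The kinesin-2 motor subunits, of which KIF3A pairs with either KIF3B or KIF3C and binds the adaptor KIFAP3, were not called: KIF3A, KIF3B and KIF3C stood at -0.10 ± 0.07, -0.04 ± 0.05 and -0.10 ± 0.05. KIF17, another kinesin-2 that carries glutamate receptor subunits, had few reads (4.11 to 5.61 CPM in vehicle) and a wide error, 0.18 ± 0.18.

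Among mitotic kinesins 0 of 12 tested members were called at 20 µM, with values from -0.15 to 0.09. KIF11 was read at 84.3, 105 and 83.8 CPM in vehicle and at 87.3, 86.7 and 80.6 CPM at 20 µM. Vehicle library 2 was the high one, and the paired differences were 0.05, -0.28 and -0.06. KIFC1, which clusters spindle poles, was also highest in vehicle library 2, with 59.5, 63.4 and 53.7 CPM in vehicle and 61.1, 52.0 and 48.5 CPM at 20 µM (-0.13 ± 0.06, adjusted p = 0.389 in edgeR with the block). The lowest estimates belonged to KIF20B (-0.15 ± 0.07), KIF20A (-0.13 ± 0.06) and KIFC1, motors that act in cytokinesis and at the spindle. The highest belonged to KIF14 (0.09 ± 0.07) and KIF23 (0.06 ± 0.06), which act at the midbody and in the centralspindlin complex.

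Promoter letters were counted in the mitotic and the transport genes, and a few windows are shown to place the motifs. RefSeq promoter windows (GRCh38.p14) were found for 36 of 46 members, and the 250 bases before the start were searched on both strands for CCAAT (the NF-Y box), TTTGAA (the core of the cell cycle homology region) and TGACNNNGC (the core of the antioxidant response element bound by NRF2); no matches overlapped in the kinesin windows. No window was given for KIF5A, KIF13B, KIF19, KIF21B, KIF26B, KIF27, KIFC2, KIFC3, KLC2 or KLC4. CCAAT was in 11 of 14 mitotic genes (78.6%), 4 of 12 transport genes (33.3%) and 37.0% of all 27305 genes with a window. TTTGAA was in 5 of 14 mitotic genes (KIF11, KIF15, KIF18A, KIF23 and KIF4A; 35.7%), 1 of 12 transport genes (KIF5B) and 16.1% of all. TGACNNNGC was in 1 of 14 mitotic genes, 1 of 12 transport genes and 13.2% of all. The sequences below are read 5′ to 3′ on the strand of the gene, leave out any annotated exon next to the start, and have the motifs in capitals (ATTGG and TTCAAA are CCAAT and TTTGAA on the other strand). They lie at chr10:92593030-92593129 (plus strand), chrX:70290004-70290089 (plus), chr1:200620752-200620851 (minus), chr10:32056432-32056573 (minus) and chr14:104138487-104138586 (plus), in the order printed.
KIF11: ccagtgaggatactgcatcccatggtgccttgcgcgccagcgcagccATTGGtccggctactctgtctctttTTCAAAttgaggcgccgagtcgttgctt
KIF4A: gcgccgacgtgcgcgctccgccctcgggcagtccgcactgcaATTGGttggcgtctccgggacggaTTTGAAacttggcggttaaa
KIF14: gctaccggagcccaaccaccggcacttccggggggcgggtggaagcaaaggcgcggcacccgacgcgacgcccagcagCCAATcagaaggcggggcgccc
KIF5B: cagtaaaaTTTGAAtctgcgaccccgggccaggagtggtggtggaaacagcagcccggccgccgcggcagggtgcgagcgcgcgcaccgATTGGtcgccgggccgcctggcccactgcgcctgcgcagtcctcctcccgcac
KIF26A: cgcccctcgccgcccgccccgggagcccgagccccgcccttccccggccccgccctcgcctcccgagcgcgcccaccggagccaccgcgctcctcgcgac

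KIF11 and KIF4A carry CCAAT 53 and 58 bases before the start and TTTGAA 28 and 34 bases before it, so the pair sits at nearly the same distance in both. KIF14 has CCAAT alone, 22 bases before the start. KIF5B holds both motifs much farther apart, TTTGAA at 140 and CCAAT at 59 bases. The windows of KIF26A and KIF21A held none of the 3 motifs, which says only that these letters are not in those windows.

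The light chains link conventional heavy chains to cargo, and 0 of 3 tested were called. KLC2, the most abundant per length, was read at 46.2, 49.8 and 43.8 CPM in vehicle and at 55.3, 47.4 and 49.7 CPM at 20 µM (0.12 ± 0.07). KLC4 was read at 23.1, 15.4 and 17.5 CPM in vehicle and at 19.9, 15.6 and 16.3 CPM at 20 µM (-0.10 ± 0.09), with replicate 1 high in both groups. KLC1, the neuronal light chain, was read at 25.3, 28.2 and 26.5 CPM in vehicle, 29.3, 30.1 and 28.95 CPM at 10 µM and 25.5, 25.2 and 30.7 CPM at 20 µM. All KLC1 libraries at 10 µM lay above all vehicle libraries, which held for 1 of 41 members in either direction (4.01% of all genes), but the log2 difference of 0.14 ± 0.08 did not pass the test (adjusted p = 1 in edgeR with the block). KLC1 levels are uncertain, since 40.6% of its exon bases overlap other genes and reads there were set aside as ambiguous.

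None of the 5 tested ciliary and Hedgehog members was called. KIF7, which organises the ciliary tip in Hedgehog signalling, was read at 16.6, 16.8 and 16.2 CPM in vehicle and at 22.2, 17.7 and 15.2 CPM at 20 µM; libraries 1 and 2 stood above the vehicle range and library 3 below it (0.14 ± 0.11, not called). KIF24, a depolymerase that limits cilium assembly, was read at 13.4, 13.7 and 13.7 CPM in vehicle and at 12.9, 11.7 and 12.4 CPM at 20 µM. The KIF24 groups did not overlap, and the difference of -0.14 ± 0.11 did not pass the test (adjusted p = 0.648 in edgeR with the block). KIF6, KIF9 and KIF27 had SEs of 0.34, 0.15 and 0.13, so small differences were not detectable at this depth. Among the other members, KIF2A, a depolymerase that prunes axon branches, was read at 98.5, 121 and 103 CPM in vehicle and 88.1, 125 and 107 CPM at 20 µM, with replicate 2 highest in both and no call (-0.02 ± 0.05).

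**Figure D3:**
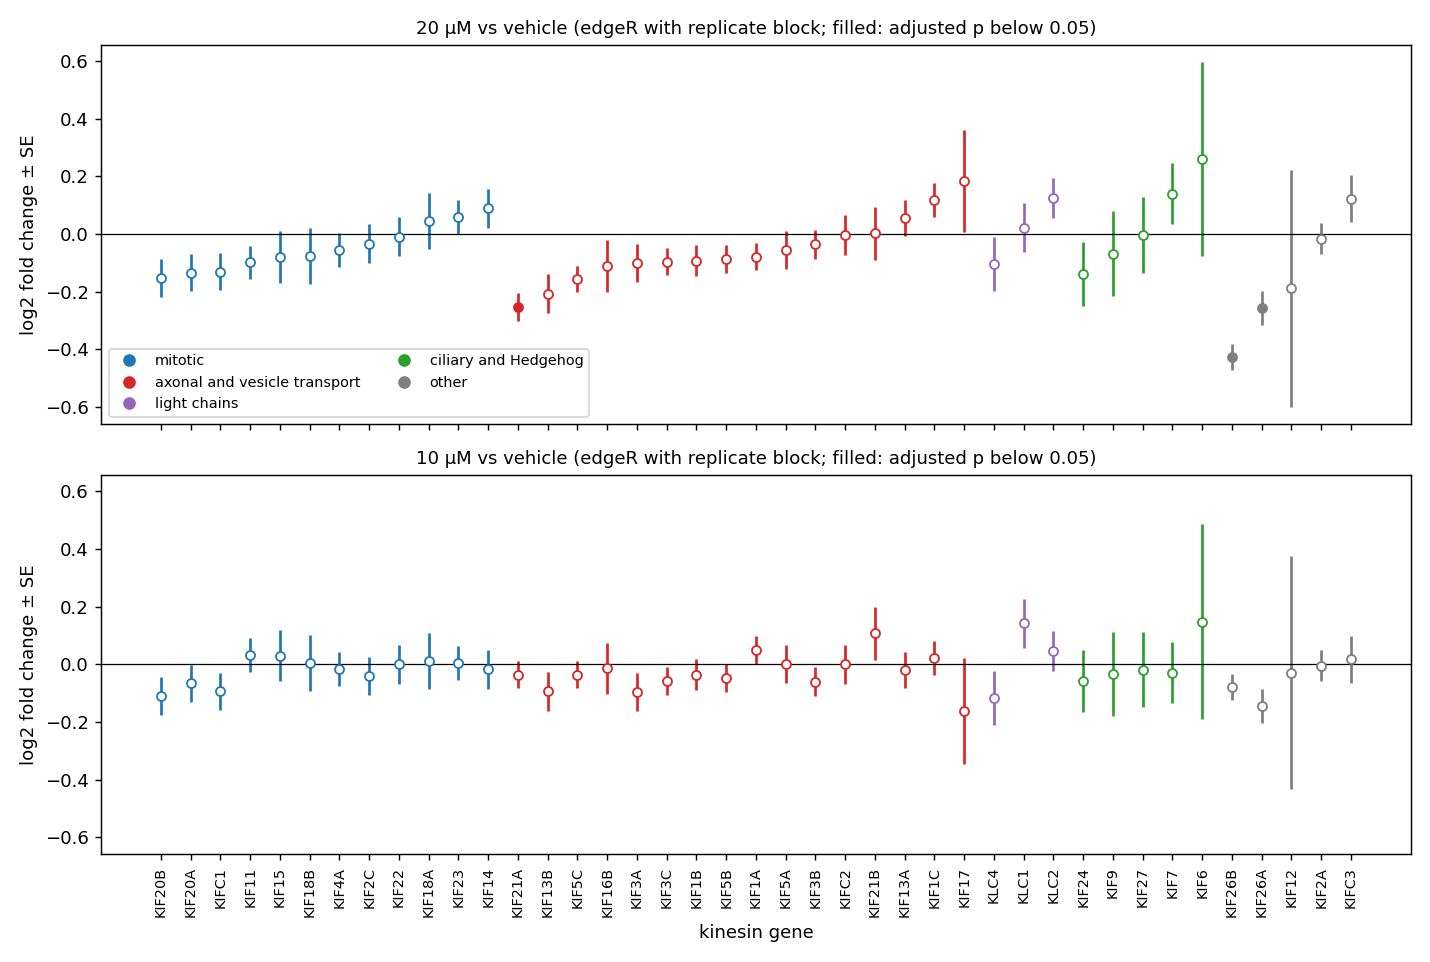
Log2 fold change with SE (edgeR with replicate block) of the 41 tested kinesin genes at 20 µM (top) and 10 µM (bottom) against the same vehicle libraries, grouped by role and ordered by the 20 µM value; filled points have an adjusted p below 0.05. KIF21A, KIF26A and KIF26B are filled at 20 µM and no point is filled at 10 µM.

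Mitotic and transport kinesins were set side by side, with no test between them. At 20 µM against vehicle the median log2 difference was -0.07 over 12 mitotic members (9 below 0) and -0.08 over 16 transport members (12 below 0), with 0 and 1 called. Over all 41 members the median was -0.07 and 70.7% were below 0, beside a median of 0.00 and 50.6% below 0 over all tested genes; no test of this difference was made. The 20 µM group lay wholly below the vehicle group for 2 members, KIF16B and KIF24, and wholly above for 0, 4.88% of the 41 beside 6.75% of all genes. All 3 same-numbered pairs were lower for 14 members (34.1%, beside 17.8% of all genes) and higher for 0 (17.4% of all genes). Summed CPM per kb of the transport members divided by that of the mitotic members was 1.52, 1.59 and 1.78 in vehicle, 1.49, 1.64 and 1.71 at 10 µM and 1.33, 1.72 and 1.70 at 20 µM. These ratios overlapped between doses, and replicate 1 was the lowest at each.

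At 10 µM, 0 of 41 members were called against vehicle, beside 0.0337% of all genes (6 of 17806, all higher), and 1 member had an unadjusted p below 0.05 (3.59% of genes). That was KIF26A, at -0.14 ± 0.06 and an adjusted p of 1. KIF26B stood at -0.08 ± 0.05 and KIF21A at -0.04 ± 0.05, also not called. The 20 µM and 10 µM comparisons share the vehicle libraries, so their values are not independent. Between 10 and 20 µM, KIF26B and KIF21A fell, by 0.35 ± 0.05 (adjusted p = 0.000137) and 0.22 ± 0.05 (adjusted p = 0.0294) on the log2 scale in edgeR with the block. These 2 of 41 lower members stood beside 0.264% of all genes called lower and 0.444% in either direction. The groups did not overlap for 1 member, KIF11, which was lower at 20 µM and not called (4.87% of genes did not overlap), and 5 members had an unadjusted p below 0.05 (8.81% of genes). KIF26A (-0.11 ± 0.06, adjusted p = 0.611) and KIF1A (-0.13 ± 0.05, adjusted p = 0.378) were not called. KIF21A kept its call in 4 of 9 left-out sets (adjusted p up to 0.998): it was lost without 10 µM replicate 1 or 3, 20 µM replicate 2 or 3, or the whole of replicate 3. KIF26B was lost only without the whole of replicate 3 (adjusted p = 0.223 in edgeR with the block). That fit called 0 members and 0 of 17842 tested genes.

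Levels also differed between replicate numbers. The median over the 41 kinesins of the largest log2 gap between replicate numbers was 0.33, and that of the absolute log2 difference between 20 µM and vehicle was 0.10. The former takes the largest of 3 gaps per gene and the latter a single difference, so these medians are not like for like. A test of the replicate number in the same edgeR model called 29 of 41 kinesins, beside 43.3% of all genes. By role these were 11 of 12 mitotic, 13 of 16 transport, 1 of 3 light chain, 0 of 5 ciliary and 4 of 5 other members. Replicate 1 was the lowest for 15 of the 29, the highest for 8 and between the others for 6. KIF1A had a geometric mean of 111 CPM over doses in replicate 1 against 229 and 168 in replicates 2 and 3, and KIF5C 127 against 243 and 186. KIF26B went the other way, with 235 against 132 and 144 CPM. The log2 gap between replicates 1 and 2 was -1.04 for KIF1A, -0.94 for KIF5C and 0.84 for KIF26B, each larger than any dose difference of the same gene.

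**Figure D4:**
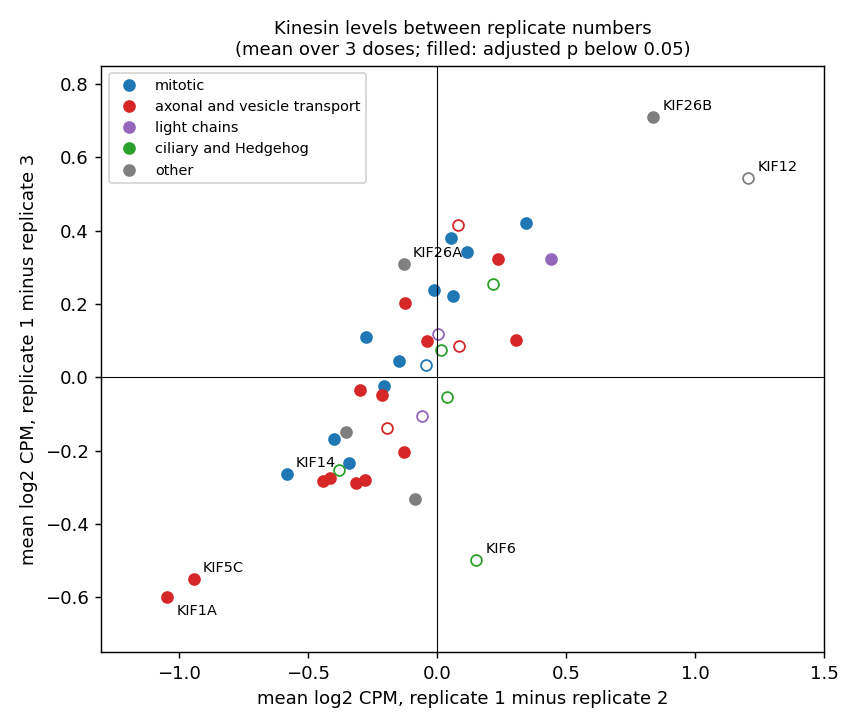
Mean log2 CPM of replicate 1 minus replicate 2 (x) and minus replicate 3 (y), averaged over the 3 doses, for the 41 tested kinesin genes by role; filled points have an adjusted p below 0.05 for the replicate number. KIF1A and KIF5C are lowest in replicate 1 and KIF26B is higher in replicate 1.

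Genes that work with kinesins were counted from lists at 20 µM against vehicle, where 1.36% of all tested genes fell and 2.21% were called in either direction. Of 28 tested kinesin adaptors and cargo partners, 1 fell and 0 rose, a share near that of all genes: APBA1, which links KIF17 to its receptor cargo, went from 46.5 ± 9.50 to 38.0 ± 8.65 CPM (SD, n = 3; log2 -0.30 ± 0.07, adjusted p = 0.0121 in edgeR with the block). Of 29 dynein and dynactin genes, the minus-end motor complex, 0 were called. Of 24 spindle and cytokinesis partners, 2 fell: TOP2A by 0.23 ± 0.05 (adjusted p = 0.00517) and the proliferation marker MKI67 by 0.20 ± 0.05 (adjusted p = 0.0256) on the log2 scale. That list includes CENPE, itself a mitotic kinesin that the symbol rule leaves out of the members. CENPE was not called (-0.06 ± 0.07). The list medians were -0.05, -0.02 and -0.07, beside 0.00 over all genes.

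Marker lists of cell types were counted in the same comparison, in which 1.36% of all tested genes fell and 0.848% rose. Of 10 sympathetic neuroblast markers 7 fell, with summed levels of 3142 to 3851 CPM in vehicle and 2649 to 3536 at 20 µM. Of 10 mesenchymal markers 3 rose, CD44 (0.44 ± 0.05), YAP1 (0.32 ± 0.07) and VIM (0.21 ± 0.05), and none fell. Another 5 of the 10 lay below 0 without passing the test, the lowest being TWIST1 at -0.24 (adjusted p = 0.0599 in edgeR with the block), and the list's median was 0.01. The list had summed levels of 4881 to 6932 CPM in vehicle and 5344 to 7296 at 20 µM. All markers of both lists had reads in every library. Of 6 glial and Schwann markers 4 were tested and 0 called, with summed levels of 6.31 to 9.47 CPM in vehicle and 8.92 to 9.35 at 20 µM, and of 4 epithelial markers 3 were tested and 0 called (32.3 to 48.6 and 38.6 to 45.2 CPM). The summed mesenchymal level also differed between replicate numbers, 4881 to 5344 CPM in replicate 2 against 6445 to 7296 in the others. The part of these markers in the kinesin values was not tested.

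Gene length and overlap were set beside the calls. Exon length was 14.4 kb for KIF26B, 10.1 kb for KIF21A and 6.76 kb for KIF26A. The median was 6.26 kb for tested kinesins and 4.42 kb for all tested genes. Across the 41 genes, which are not independent replicates, Spearman's rho between exon length and the log2 difference at 20 µM was -0.05. With the absolute log2 difference it was 0.19. Overlaps were read from GENCODE 29, which holds 58312 of the 61487 identifiers, so genes outside it were not checked. There, exons of 21 tested members overlap another gene, but KIF26B, KIF26A and KIF21A do not.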

How the data were processed

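Per the submitters' processing notes, FastQC, cutadapt, STAR, edgeR and GRCh38 were used; the sources used here name neither versions nor annotation. For each library the authors deposited raw read counts per gene, joint and per strand. The strand counts were about equal (ratio 1.007 to 1.02), so the joint counts were taken, and a gene cannot be told from an overlapping antisense gene. Of all reads, 76.4% to 78.0% were in genes; reads mapped to several places, unmapped, outside genes or ambiguous entered neither library sizes nor tests.

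Groups and replicate numbers come from the sample titles. From the counts, CPM were scaled with TMM factors (0.989 to 1.013), and 17806 genes passed filterByExpr. Tests were edgeR's quasi-likelihood fits (robust, all 9 libraries, no covariate), with Benjamini-Hochberg adjustment over all genes. SEs of edgeR values were worked back from the test, as the absolute log2 difference divided by the square root of its F statistic. They therefore rest on the spread of all 9 libraries. A second fit, with a term for the replicate number, was planned beside it. The titles' numbers were taken to pair the samples because each of the 9 same-number correlations was above 0.1, so the blocked values are printed. Residual degrees of freedom were 6 without and 4 with the block. Versions were R 4.3.3, edgeR 4.0.16, limma 3.58.1 and DESeq2 1.42.0; scripts were tested on simulated data. Symbols were matched for 61369 identifiers, and coordinates and exon lengths are from GENCODE 29 (GRCh38).

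Members given in each library were those with an adjusted p below 0.05, KIF26B, the 3 smallest p per comparison and the 2 most abundant per role by vehicle level per kb. The kinesin members and all gene lists were chosen with earlier results of these data known. Alternatives were DESeq2, limma-voom, RLE size factors, no count filter and leaving out libraries. The left-out sets of a comparison dropped a library of either compared dose or a whole replicate number. Sets that dropped a library of the remaining dose were not counted. The authors' normalized table was not used here.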

Additional observations from a re-analysis of the deposited data

How the results depend on the processing

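With the replicate block, the numbers of lower members at 20 µM against vehicle (3) and against 10 µM (2) were the same in edgeR, DESeq2 and limma-voom, with RLE size factors and with no count filter, and the 3 were KIF21A, KIF26A and KIF26B each time; without the block all settings called 0. Libraries were also left out singly, from either compared dose, or as all libraries of 1 replicate number. These fits gave 1 to 4 lower members against vehicle and 0 to 2 against 10 µM (1 to 2 where any was called). Against vehicle those fits called from 48 of 17842 genes (without replicate 3) to 619 of 18262 (without 20 µM replicate 1), in either direction. Against 10 µM the same sets gave the lowest and highest counts, 0 and 301 genes. KIF26B was called against vehicle in 14 of 14 settings with the block, with log2 values of -0.45 to -0.41. KIF21A was called in 11 and KIF26A in 8 of them. With no count filter the light chain median at 10 µM was 0.096, and 0.089 with the block. Values that changed sign when a library was left out were never called. With the block they were -0.026, -0.086 and -0.075 for KLC1 at 20 µM against vehicle (without vehicle replicate 3, 20 µM replicate 3 and all of replicate 3; highest 0.12), and 0.0049, 0.0076 and 0.023 for KIF21A at 10 µM (without vehicle replicate 2, 10 µM replicate 2 and all of replicate 2; lowest -0.086). Without the block, leaving out single libraries gave -0.077 to 0.075 for KLC1, -0.35 to 0.20 for KIF1A at 20 µM against vehicle, -0.23 to 0.34 at 10 µM and -0.41 to 0.14 between the doses, -0.12 to 0.068 for KIF21A at 10 µM and -0.39 to 0.23 for KIF26B at 10 µM. The cause of these changes was not tested. Depth limits the lowest genes: 3 reads are 0.153 to 0.193 CPM, and KIF6 and KIF12 had SEs of 0.34 and 0.41.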
